A study of Brassica oleracea with 4 samples.

Results

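The 7 metal handling genes described here belong to a deposited table of 135 genes that differed between hypocotyls of broccoli (Brassica oleracea) microgreens sprayed with calcium chloride and hypocotyls sprayed with water. They were taken as every gene whose annotation contains 1 of 4 phrases, which are cadmium, heavy metal, zinc induced facilitator and metallothionein. This gave a pair of homologues of PLANT CADMIUM RESISTANCE 2 (PCR2), 3 genes of the heavy metal transport/detoxification superfamily, of which 1 is annotated as HIPP22, a homologue of ZINC INDUCED FACILITATOR 1 (ZIF1), and a homologue of METALLOTHIONEIN 3 (MT3). The calcium group was sprayed daily with 10 mmol/L calcium chloride and the water group with water alone. Seedlings of both groups were harvested at 10 days, with 2 labelled libraries per spray. The labels name no genotype or cultivar, and do not say whether the libraries of a spray came from separate trays.

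Each gene has 1 RPKM value for each spray (reads scaled to gene length and to the total of mapped reads) and no value per library. The 7 members therefore carry no replicate error here, and no test of a difference could be made from them. The read depth of the libraries is unknown, so no counting interval can be given. All 135 genes were at least 2-fold apart with an adjusted p under 0.05 in the authors' deposited table, so 100% of its genes met those limits. Of them, 71 (52.6%) were higher with calcium and 64 (47.4%) were lower. Because the table was selected on this contrast, the size and direction of the members' differences are given as a description. Metal genes outside the table were not analysed here.

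Plants need zinc, copper and iron as cofactors, and keep these metals and toxic ones such as cadmium bound or moved out of the cytosol. Membrane proteins export metals from the cell or load them and their ligands into the vacuole. Small proteins with a heavy-metal-associated domain bind metal ions in the cell and are regarded as metallochaperones, which hand metals on. Metallothioneins are short, cysteine-rich proteins that hold metal ions through sulfur.

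With calcium, 6 of the 7 members were higher and 1 was lower, beside 52.6% and 47.4% of all genes of the table. The higher members were all 3 genes placed under transport (both PCR2 homologues and ZIF1) and all 3 placed under chaperones (the heavy metal superfamily). The lower one was MT3, the only member placed under metal binding. The median log2 ratio of calcium over water was 1.29 for the 7 members and 1.04 for all 135 genes. These medians mix genes at least 2-fold apart in either direction, so they depend on how many genes lie on each side. Among genes higher with calcium, the median was 1.70 for the 6 members and 1.58 for all 71 genes. The summed level of the 6 higher members was 471 RPKM with calcium and 179 RPKM with water, whereas MT3 alone was at 71.6 RPKM with calcium and 144 RPKM with water. A median shift over the selected genes left 3 members at least 2-fold higher and 1 at least 2-fold lower. Bo8g106450, ZIF1 and Bo2g024600 were then at log2 ratios of 0.25, 0.08 and 0.01. The subtracted median, 1.04, comes from genes all selected to be at least 2-fold apart, so the shift does not normalize the libraries. These 3 low values therefore do not show that the genes were unchanged.

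**Figure D1:**
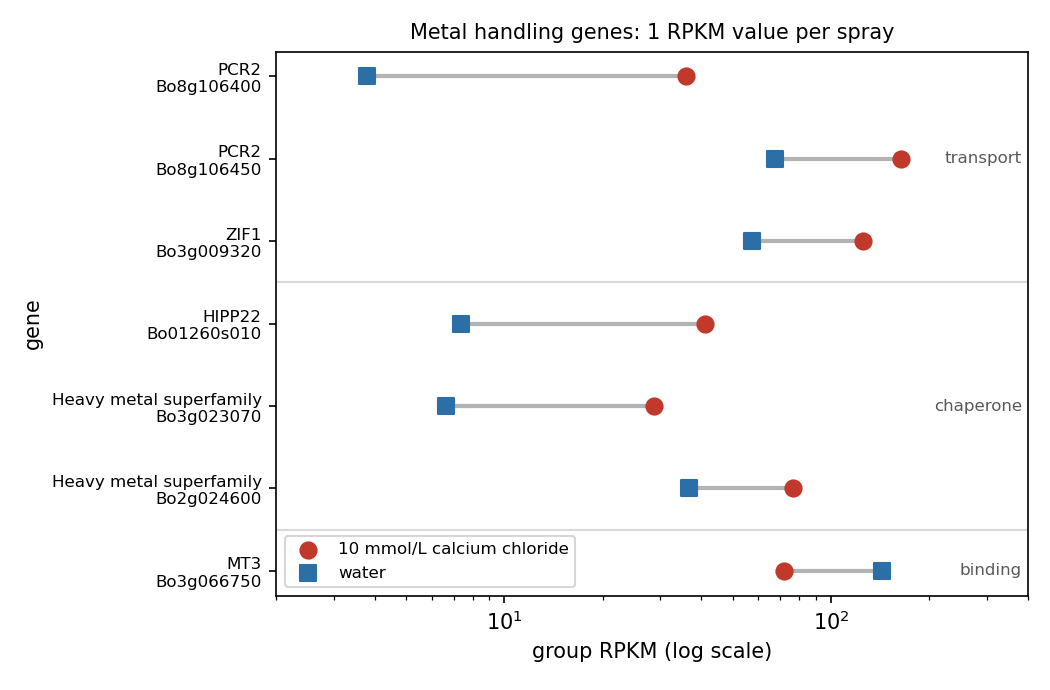
RPKM of each metal handling gene on a log scale, with 1 point for calcium chloride (circle) and 1 for water (square), grouped by function and joined by a line. The calcium point lies to the right of the water point in the 6 transport and chaperone genes, and to the left in MT3 (71.6 RPKM with calcium, 144 RPKM with water).

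In Arabidopsis, PCR2 is a small plasma membrane protein that exports zinc and takes part in its movement from root to shoot. Both broccoli homologues match the same Arabidopsis gene, AT1G14870, and both were higher with calcium. Bo8g106400 was at 36.1 RPKM with calcium and 3.80 RPKM with water, a 9.48-fold difference. This is the fifth largest ratio among the 71 genes higher with calcium. Bo8g106450 was at 164 RPKM with calcium and 67.3 RPKM with water, a 2.44-fold difference, which ranks 53 of 71. The weakly expressed homologue thus had the larger ratio, while the abundant one had the larger difference, at 96.9 RPKM against 32.3 RPKM for Bo8g106400. With 5 RPKM added to both groups, the difference of Bo8g106400 was 4.66-fold and that of Bo8g106450 was 2.34-fold.

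The summed level of the PCR2 pair was 200.3 RPKM with calcium and 71.1 RPKM with water, 2.82-fold higher. Bo8g106450 made up 82.0% of this sum with calcium and 94.7% with water. Its level was 4.55 times that of Bo8g106400 with calcium and 17.7 times with water. In 13 cases, several genes of the table match the same Arabidopsis gene. The ratio of the largest to the smallest fold within a case was highest for PCR2, at 3.89. The next was 3.61, for the EF-hand genes that match AT5G39670, and the least was 1.01, for TSO2. This order depends on what is added to the values. With 5 RPKM added to both groups the PCR2 value was 1.99, the third of the 13, below 2.67 for ICS1 and 2.32 for the AT5G39670 pair. How the authors' counting divided reads between similar copies was not given in the sources used here, so the separate values of the PCR2 homologues are uncertain to that extent.

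**Figure D2:**
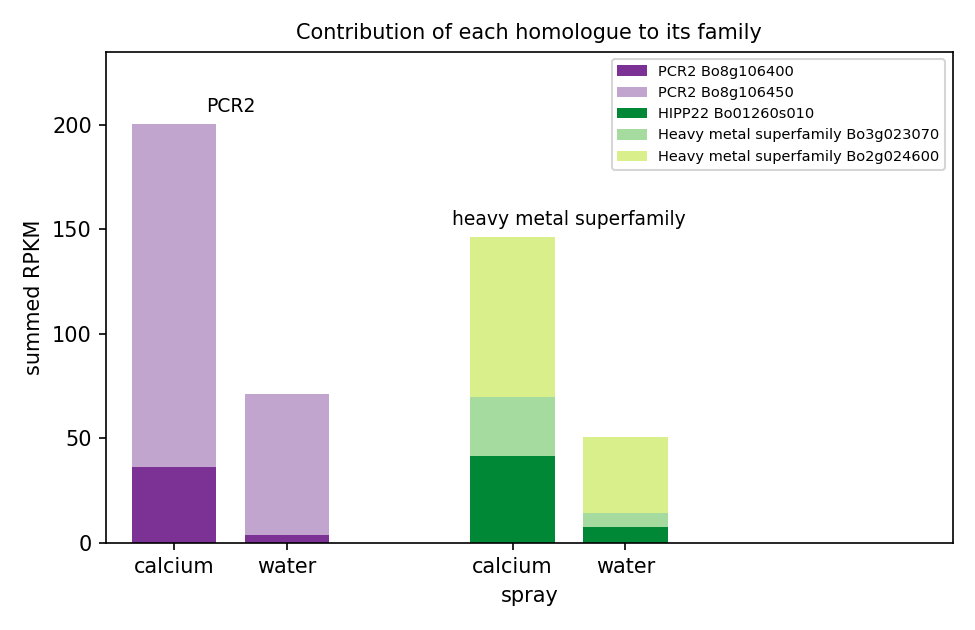
Summed RPKM of the PCR2 homologues and of the heavy metal superfamily genes, with the calcium bar left of the water bar and each homologue as a segment. Bo8g106450 fills 82.0% of the PCR2 bar with calcium and 94.7% with water, and Bo2g024600 fills 52.2% of the heavy metal bar with calcium and 72.4% with water.

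ZIF1 of Arabidopsis is a vacuolar membrane transporter of the major facilitator superfamily that loads the metal ligand nicotianamine into the vacuole, where zinc is retained. Its broccoli homologue Bo3g009320 was at 125 RPKM with calcium and 57.4 RPKM with water. The difference of 67.7 RPKM was the second largest gain among the members, and the ratio was 2.18-fold, at rank 64 of the 71 higher genes. Its log2 ratio was 1.12, and 0.89 after quantile normalization across the selected genes, which is below a 2-fold difference. A further gene annotated only to the major facilitator superfamily, Bo9g154520, lay on the opposite side. It was at 15.9 RPKM with calcium and 49.0 RPKM with water, 3.09-fold lower.

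All 3 genes of the heavy metal transport/detoxification superfamily were higher with calcium. The table places them under different Arabidopsis matches, so they are not copies of 1 gene by that criterion. HIPP22 (Bo01260s010, matching AT1G22990), named for a heavy-metal-associated domain and an isoprenyl lipid anchor, was at 41.2 RPKM with calcium and 7.38 RPKM with water. Its 5.58-fold difference is at rank 14 of the 71 higher genes. Bo3g023070 (AT5G52750) was at 28.7 RPKM with calcium and 6.62 RPKM with water, 4.33-fold higher and at rank 20. Bo2g024600 (AT5G60800) was at 76.3 RPKM with calcium and 36.7 RPKM with water, 2.08-fold higher and at rank 66. With 5 RPKM added to both groups, Bo2g024600 was 1.95-fold higher, under the 2-fold limit.

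The heavy metal genes had the same order as the PCR2 pair, in that the homologue most abundant with water had the smallest ratio and the largest difference. The 2-fold limit of the table sets a least gain, since a higher gene must gain at least its level with water. That level is 36.7 RPKM for Bo2g024600 and 67.3 RPKM for Bo8g106450, above the observed gains of their homologues. The limit sets no upper bound on the gains of the homologues, so it does not by itself fix the order of the differences. Bo2g024600 gained 39.5 RPKM, HIPP22 gained 33.8 RPKM and Bo3g023070 gained 22.1 RPKM. Their summed level was 146 RPKM with calcium and 50.7 RPKM with water, 2.88-fold higher. Bo2g024600 contributed 52.2% of that sum with calcium and 72.4% with water. HIPP22 contributed 28.2% with calcium and 14.6% with water.

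MT3 (Bo3g066750, matching AT3G15353) was the only metallothionein of the table and the only member lower with calcium. It was at 71.6 RPKM with calcium and 144 RPKM with water, which made it the most abundant member in the water group and the fourth most abundant in the calcium group. The 2.005-fold difference is the smallest of all 135 genes, in either direction. With 1 RPKM added to both groups it was 1.99-fold. In the same hypocotyl samples all 12 leaf and cotyledon markers of the table were also lower, beside 47.4% of all its genes. They encode chlorophyll-binding antenna, photosystem and RuBisCO small subunit proteins. Markers less than 2-fold apart are not in the table, so this count does not cover all such genes. The 12 markers ranged from 40.0 to 3605 RPKM with calcium and from 95.1 to 7288 RPKM with water, and none was at 0. Their sum was 7147 RPKM with calcium and 15889 RPKM with water. The part of these markers in the difference of MT3 was not tested, and fewer cells of a type cannot be told apart from less RNA per cell in such samples. The table holds 1 root marker, RGF9, at 16.2 RPKM with calcium and 54.3 RPKM with water. The words for seed and embryo matched 2 genes. M17 (Bo4g190800), a late embryogenesis abundant protein gene, was at 50.1 RPKM with calcium and 2.42 RPKM with water. Bo9g120390 was at 376 RPKM with calcium and 142 RPKM with water, but matched through a superfamily name that also covers lipid transfer proteins, so it does not mark seed tissue. No marker that would define the hypocotyl was among the lists, so the labelled tissue could not be checked from its own markers.

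**Figure D3:**
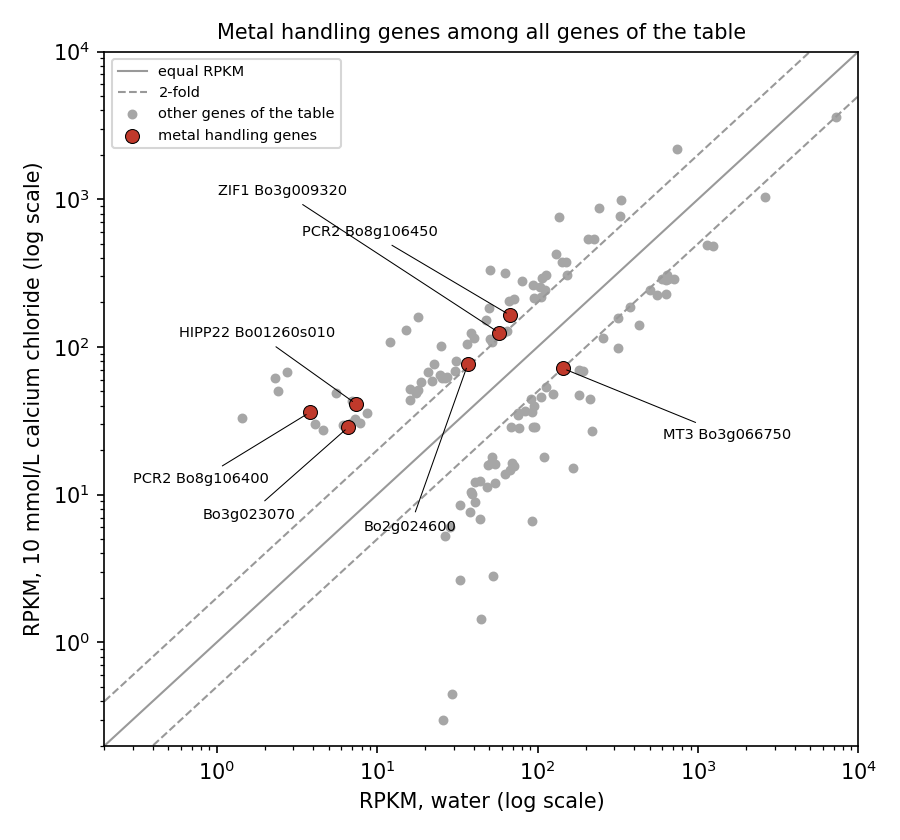
RPKM with calcium chloride against RPKM with water for the 135 genes of the table, both on log scales, with metal handling genes in red. The solid line marks equal levels and the dashed lines mark 2-fold differences. MT3 lies at the lower dashed line, and Bo8g106400, HIPP22 and Bo3g023070 lie on the left at under 10 RPKM with water.

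Members at least 3-fold higher with calcium numbered 3 (Bo8g106400, HIPP22 and Bo3g023070), and 0 were at least 3-fold lower, beside 25.2% of all genes in each direction. The same 3 genes are the ones with less than 10 RPKM in the water group. The sources used here state no limit on the difference in RPKM, and the part of the table's selection in this relation was not tested. Among the 135 genes, the lowest level in the higher group is 25.8 RPKM, and the smallest observed difference is 21.5 RPKM. With that difference, a gene at 3.80 RPKM with water, the level of Bo8g106400, would be 6.64-fold higher with calcium. The corresponding ratio is 3.91-fold at the water level of HIPP22 and 4.24-fold at that of Bo3g023070. The 4.33-fold difference of Bo3g023070 is close to that ratio, and its difference of 22.1 RPKM is the second smallest of the 135 genes. At the higher water levels of Bo8g106450, ZIF1 and Bo2g024600 it would be 1.32-fold, 1.37-fold and 1.58-fold. These ratios are below the 2-fold limit that every gene of the table met. ZIF1 at 2.18-fold and Bo2g024600 at 2.08-fold lie close to that limit.

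**Figure D4:**
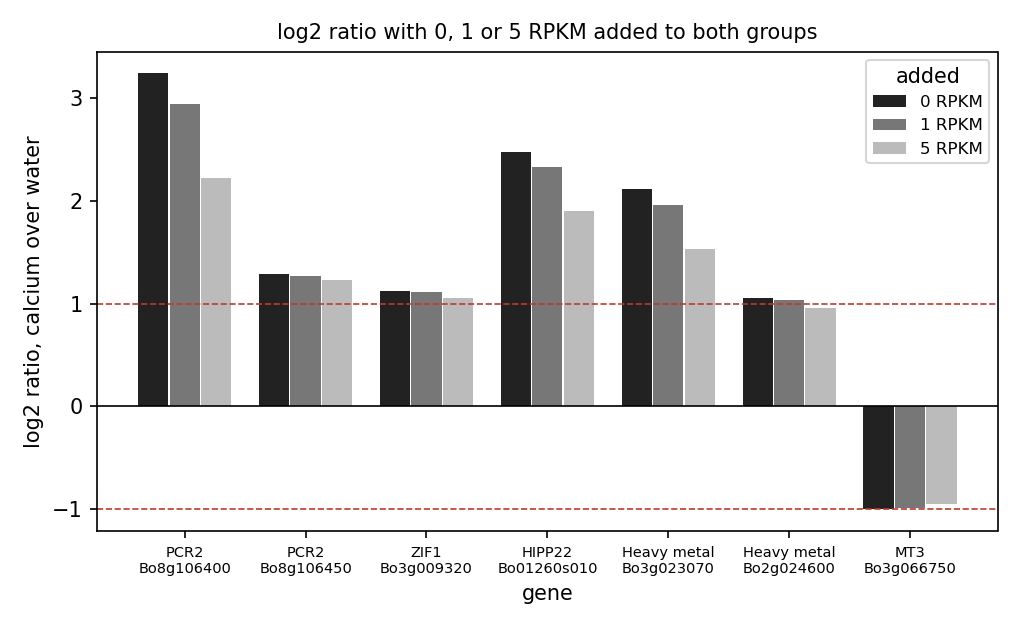
The log2 ratio of calcium over water for each metal handling gene with 0, 1 or 5 RPKM added to both groups, with dashed lines at a 2-fold difference. The bars of Bo8g106400 shrink from 3.24 to 2.22, those of Bo8g106450 only from 1.29 to 1.23, and MT3 is inside the dashed line once 1 RPKM is added.

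Adjusted p-values in the authors' deposited table did not follow the order of the ratios. In the authors' deposited table the smallest adjusted p among the members was 3.27e-08, for the abundant PCR2 homologue Bo8g106450 with its 2.44-fold difference. Bo8g106400, at 9.48-fold, had an adjusted p of 8.28e-05 in the authors' deposited table, close to the 9.06e-05 given there for ZIF1. HIPP22 had 0.000272 and MT3 had 0.000611 in the authors' deposited table. Bo2g024600 with 0.0256 and Bo3g023070 with 0.0315 had the largest adjusted p-values of the members, and these are the tenth and the seventh largest of all 135 in the authors' deposited table. In all, 5 members were under 0.001 in the authors' deposited table, beside 68.9% of its genes. The sources used here do not name the test behind these values.

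Beyond the members, a list of words for metal and ion homeostasis matched 10 genes. Of these, 6 were higher with calcium and 4 were lower, beside 52.6% and 47.4% of all genes of the table. These 10 genes had a median log2 ratio of 1.09, beside 1.04 for all 135 genes. Both medians come from genes selected to be at least 2-fold apart in either direction, so they do not compare the directions. The higher genes were the calcium transport genes CAX1 (2 homologues), ACA10, ACA1 and ACA11, and the glutathione S-transferase GSTF2. The CAX1 homologue Bo4g187430, which encodes a vacuolar exchanger of calcium for protons, was at 874 RPKM with calcium and 242 RPKM with water, above every metal handling gene. The lower genes were the major facilitator gene Bo9g154520, GSTF9 and the pair of TSO2 homologues. GSTF9 was at 224 RPKM with calcium and 552 RPKM with water. The TSO2 homologues matched through the word ferritin and encode a ribonucleotide reductase subunit, an enzyme of DNA precursor synthesis and not a metal transporter.

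For each member, the annotated gene with the most similar pair of RPKM values was sought among the 101 other genes with an Arabidopsis match, by Euclidean distance of log2 RPKM over the 2 group values. ZIF1 had the closest neighbour, the homeobox gene HB-12 (Bo4g100070), at 122 RPKM with calcium and 57.2 RPKM with water (distance 0.04). Bo2g024600 lay next to the calcium pump gene ACA1 (Bo3g142920), at 79.7 RPKM with calcium and 36.2 RPKM with water (distance 0.07). Bo3g023070 lay next to PR1 (Bo3g088360), a pathogenesis-related gene, at 30.5 RPKM with calcium and 6.85 RPKM with water (distance 0.10). HIPP22 was closest to ARFA1D (Bo6g094710), a small GTP-binding protein gene, at 0.10. The PCR2 homologues had more distant neighbours. Bo8g106450 was at 0.31 from the lipase gene GLIP3 (Bo3g184360), and Bo8g106400 was at 0.49 from the homologue of xyloglucan endotransglucosylase/hydrolase 17 (Bo3g175620). MT3 was at 0.43 from the serine protease inhibitor gene Bo4g187850. With 2 values per gene, such likeness is a matter of level and ratio alone.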

How the data were processed

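RNA was sequenced from hypocotyls of 4 libraries, 2 sprayed with calcium chloride and 2 with water. Per the labels' protocols, seedlings grew at 25 °C, in the dark for 4 days and then with 12 h of light a day, and the library kit was Illumina TruSeq. The submitters' processing notes name CASAVA. The sources used here give no aligner, genome build, annotation or way of combining libraries. The authors deposited 1 RPKM per gene and spray, its log10, a signed fold score and a p-value adjusted for a false discovery rate. Both deposited log10 columns and the fold were checked to follow from the RPKM values. The control column was taken as water.

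Ratios are calcium over water of the group RPKM with no pseudocount. The planned limma test needs values per library and was not run. The members and lists were chosen with earlier results of these data known. Every member is named, as are the nearest annotated gene of each, and the genes of a list of 27 words for metal and ion homeostasis; genes outside these, and the added alternatives, were chosen after their values were seen. Members were assigned to functions by family and not from the annotation alone. The heavy metal genes are annotated as transport/detoxification without the word chaperone, and the PCR2 genes without the word transport. None of the 135 identifiers, 7 members included, was found in the reference gene table, so positions and sequences are not given. The log2 ratio, quantile normalization and the search for the nearest gene were checked on simulated data. Alternatives were pseudocounts of 1 and 5 RPKM, a filter of 5 RPKM, a median shift, quantile normalization, a 3-fold limit, wider words and 1 value per Arabidopsis match. Software was Python 3.11.15, pandas 2.3.3, NumPy 2.4.6 and matplotlib 3.10.9.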

Additional observations from a re-analysis of the deposited data

How the results depend on the processing

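No paired analysis was possible because the table has 1 value per spray and none per library; for the same reason leaving out a replicate and the limma test were not run. The median log2 ratio of the members, 1.29, was 1.27 and 1.23 with 1 and 5 RPKM added, 1.21 with at least 5 RPKM in both groups (which leaves out Bo8g106400), 1.01 after quantile normalization, 0.25 after subtracting the median of all genes (1.04), and 1.62 with 1 value per Arabidopsis match. At least 2-fold, 6 members were higher and 1 was lower. With 1 or 5 RPKM added, 0 were lower, since MT3 went under the limit; 5 were higher with 5 RPKM added. The median shift left 3 higher and brought Bo8g106450, ZIF1 and Bo2g024600 to log2 ratios of 0.25, 0.08 and 0.01. At least 3-fold, 3 were higher and 0 lower. With wider words, 3 were lower, since both TSO2 genes then matched. A deposited adjusted p under 0.001 left 4 higher and 1 lower, and leaving out Bo8g106400 left 5 higher, both chosen after seeing the data. Both scalings use selected genes alone, so they do not normalize the libraries. The fold of Bo8g106400 over that of Bo8g106450, 3.89, was 3.19 and 1.99 with 1 and 5 RPKM added, also chosen after seeing the data.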

Other observations

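The authors' deposited table also holds a fold change of transformed values, which is a ratio of log10 RPKM values and not a ratio of levels. For Bo8g106400 it is 2.68 in the authors' deposited table, against 9.48 for the ratio of RPKM values, and for Bo8g106450 it is 1.21, against 2.44. In the authors' deposited table ZIF1 has 1.19 and Bo2g024600 has 1.20 in that column, so their order is the reverse of that of their RPKM ratios, 2.18 and 2.08.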
